A study of Homo sapiens with 3 samples.

Results

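The genes described here are 10 transcription factors and immediate early genes: *FOS*, *FOSB*, *FOSL1*, *FOSL2*, *JUN*, *JUNB*, *JUND*, *ATF3*, *EGR1* and *IER2*. They were taken by gene symbol from the 23131 rows of the deposited expression table, and each symbol matched 1 row. RNA came from HCT-116 cells, a colon carcinoma line with wild-type APC and a β-catenin lacking Ser45 (CTNNB1ΔSer45), and both libraries compared here share this background. One library was from cells given pooled anti-*APC* siRNA in 2 transfections on consecutive days. The other was from cells that the sample title calls untransfected and the treatment label calls mock, with transfection reagent and no siRNA. Both were harvested 48 hours after the second transfection, and the library from cells given scrambled siRNA was not used here. The untransfected library is the control throughout, and levels are given with anti-*APC* siRNA first and the control second. In the libraries compared here, any effect of carrying siRNA therefore cannot be told apart from that of *APC* silencing. Nor can that of the reagent and the transfection procedure if the control was untransfected as its title says. The paper's supplement sets scrambled siRNA beside untransfected cells for some other genes, but for none of these 10. There was 1 library per condition, so no value below has a replicate error and no *p* was computed. Fewer cells expressing a gene and less RNA per cell also cannot be told apart in these bulk samples.

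AP-1 is a dimer of basic leucine zipper proteins. JUN proteins pair with themselves or with FOS proteins, whereas FOS proteins need a JUN partner to bind DNA, and ATF3 can pair with JUN proteins. Many of these genes are immediate early genes, whose transcription begins within minutes of a growth factor or stress signal without new protein synthesis, largely through ERK and JNK kinases acting on serum response factor with its ETS partners and on JUN. In colorectal cancer cells AP-1 acts downstream of RAS and is known to cooperate with TCF and β-catenin at shared target genes.

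*APC*, the targeted gene, had 3.43 FPKM after *APC* silencing against 9.15 FPKM in the control. *AXIN2*, a textbook WNT target, had 28.7 and 4.11 FPKM. FPKM is a read number corrected for transcript length and for library depth, so levels of different genes can be set side by side. Of 10 colon epithelial markers, 6 had a mean of at least 1 FPKM, including *EPCAM*, *KRT8* and *CDX2*, while *VIL1*, *LGALS4* and *CDX1* stayed below 0.1 FPKM in both libraries. Of 12 markers of leukocytes, fibroblasts and endothelium, 10 were below 0.1 FPKM in both, 6 of them at 0 in one library, and the exceptions were *CD68* and *COL1A1*. The 12 summed to 8.22 FPKM after *APC* silencing against 11.9 FPKM in the control, and the 10 epithelial markers were also lower in sum, at 1295 and 1650.0 FPKM. Low genes with equal read numbers in both libraries shared a single ratio, and their transcript lengths gave an estimated depth of 25200000 reads for the untransfected and 23000000 for the anti-*APC* library. The first is a median within a chosen range of 20000000 to 30000000 reads. With no such range the fullest bin of the 266 implied depths, holding 52 of them, ran from 25100000 to 28200000 reads.

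All 10 genes were expressed in both libraries, over a 169-fold range of FPKM in the control and an 83.7-fold range with anti-*APC* siRNA. In untransfected cells *FOSL1* was highest at 133 FPKM, followed by *IER2*, *EGR1*, *JUNB*, *JUND*, *ATF3*, *FOSL2*, *JUN*, *FOS* and, at the low end, *FOSB* at 0.785 FPKM. By the mean of both libraries *FOSL1* stood above 93.2% of the 12063 expressed genes, those with a mean of at least 1 FPKM and a value above 0 in both libraries, and *FOSB* above only 0.232% of them. The order was the same with anti-*APC* siRNA except that *ATF3* was in the fourth place instead of the sixth, ahead of *JUNB* and *JUND*. Within each library these are single measurements, so it is not known which neighbours in this order would change places between cultures.

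**Figure D1:**
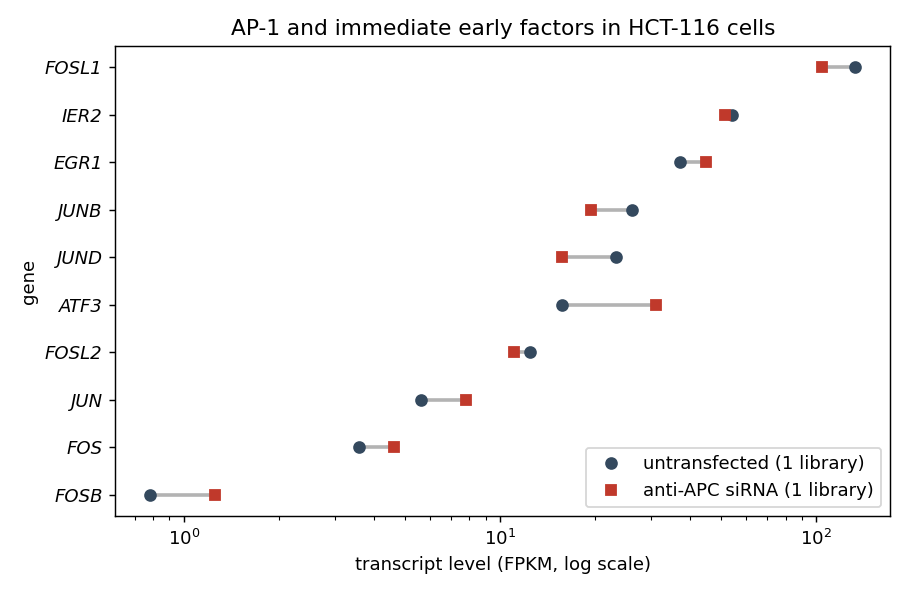
Transcript level (FPKM, log axis) of each of the 10 genes in the untransfected library (circles) and the anti-*APC* siRNA library (squares), ordered by the untransfected level; each point is 1 library. *ATF3* has the widest gap, from 15.7 to 31.1 FPKM, and *FOSL1* is the highest gene in both libraries.

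With anti-*APC* siRNA 5 of the 10 genes were higher (*ATF3*, *FOSB*, *JUN*, *FOS* and *EGR1*) and 5 were lower (*JUND*, *JUNB*, *FOSL1*, *FOSL2* and *IER2*). Only *ATF3* and *FOSB* were at least 1.5-fold higher, and no member was at least 1.5-fold lower. *FOSB* was under 1 FPKM in the control, so it passed the minimum on the mean only through the library where it was higher, as did 39 of the 309 genes called higher among all expressed genes. Over all expressed genes 2.56% were at least 1.5-fold higher and 6.61% at least 1.5-fold lower (309 and 797 genes). When reads were compared with no correction for depth this split became 222 higher and 1340 lower. The median log2 ratio was 0.10 over the 10 genes and -0.05 over all expressed genes, of which 41.4% had a ratio above 1. The median of the 10 genes was -0.03 with reads not corrected for depth, so its sign depends on the scaling. Each ratio is given below with a 95% interval from the estimated read numbers (exact binomial). This interval covers counting error only and says nothing of the variation between cultures. It excludes 0 for all 10 genes at the deposited scaling, but holds 0 for *IER2* after centring on the median (-0.11 to 0.05) or upper quartile scaling (-0.12 to 0.03) and for *FOS* with reads not corrected for depth (-0.06 to 0.52).

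**Figure D2:**
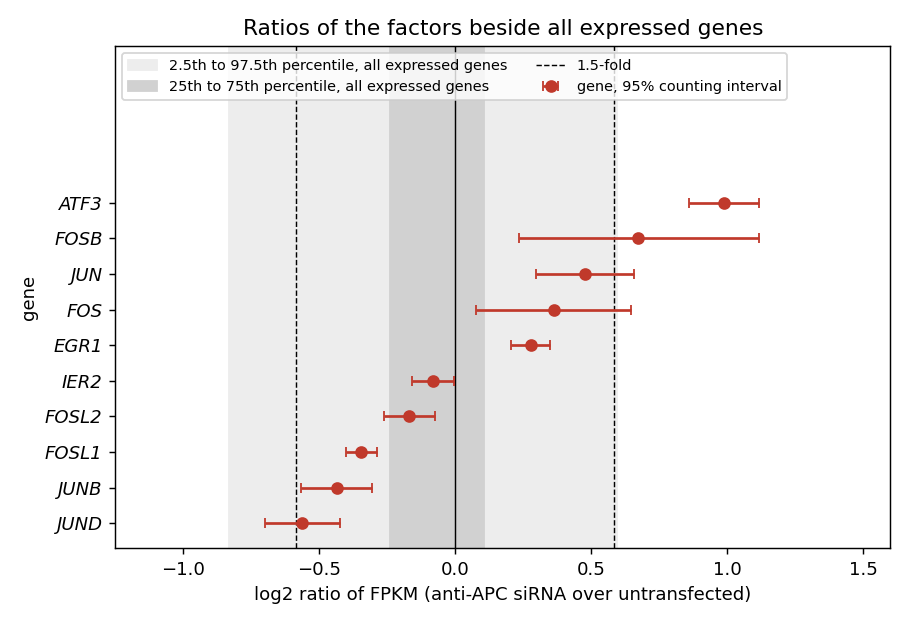
Log2 ratio of FPKM (anti-*APC* siRNA over untransfected) for each gene, with 95% counting intervals as bars; grey bands show the middle 50% and the middle 95% of all 12063 expressed genes, and dashed lines mark 1.5-fold. *ATF3* at 0.99 and *FOSB* at 0.67 lie past the dashed line, and *JUND* at -0.56 lies just inside it.

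*ATF3* encodes a stress-induced bZIP factor that mostly represses transcription as a homodimer. It had 31.1 FPKM after *APC* silencing against 15.7 FPKM in the control, a 1.98-fold difference. The log2 ratio was 0.99 (counting interval 0.86 to 1.12), from about 1390 and 768 reads. Only 0.986% of all expressed genes had a higher ratio. Among the 6123 genes with a mean of 10 to under 100 FPKM, 1.58% were at least 1.5-fold higher and 0.588% exceeded *ATF3*. *ATF3* lies on chromosome 1 of GRCh37 from 212738676 to 212794119 on the plus strand, with 10 annotated transcripts in GENCODE 44. These transcripts have 7 distinct starts, and the FPKM is a value for the whole gene, so the table does not tell which start was used.

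The 250 bases before the farthest upstream start of *ATF3* that RefSeq lists, chr1:212565157-212565406 of GRCh38.p14 on the plus strand, are shown because *ATF3* differed most of the 10 genes. Capitals mark TGACNTCA, a form of the cyclic AMP response element that ATF and JUN dimers can bind. It begins 123 bases before the start.
ATF3: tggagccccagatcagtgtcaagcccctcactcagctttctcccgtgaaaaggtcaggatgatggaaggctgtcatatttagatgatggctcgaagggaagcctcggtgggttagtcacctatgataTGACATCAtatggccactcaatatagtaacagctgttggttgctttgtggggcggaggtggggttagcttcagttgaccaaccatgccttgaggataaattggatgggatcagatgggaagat
The other *ATF3* window of the RefSeq table used here holds no such match. It ends where an internal exon begins in 5 of the 10 GENCODE transcripts, 4 bases from the nearest annotated start, and is not printed. These windows end 43354 and 6257 bases from the start of the canonical transcript, so the bases before that start were not searched, although the read numbers of *ATF3* use the length of that transcript.

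In the JUN family, which supplies the partner every AP-1 dimer needs, the members went opposite ways. *JUN*, the prototype member and a strong activator, had 7.83 FPKM after *APC* silencing against 5.63 FPKM in the control, a 1.39-fold difference. Its log2 ratio was 0.48 (counting interval 0.30 to 0.66). *JUNB*, a weaker activator that can oppose JUN, had 19.4 and 26.2 FPKM, which is 0.739 of the untransfected level. Its log2 ratio was -0.44 (counting interval -0.57 to -0.31). *JUND*, which is expressed in most cells without stimulation, had 15.7 and 23.2 FPKM, or 0.677 of the untransfected level. Its log2 ratio was -0.56 (counting interval -0.70 to -0.42), and 7.24% of expressed genes had a lower one. The counting intervals of *JUNB* and *JUND* overlap each other and lie wholly below that of *JUN*.

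Summed over the family, JUN transcripts came to 42.9 FPKM after *APC* silencing against 55.1 FPKM in the control, a log2 ratio of -0.36. *JUN* made up 18.2% of the sum with siRNA and 10.2% without. *JUND* made up 36.6% and 42.2%, and *JUNB* 45.1% and 47.6%. *JUN* and *JUND* (chromosome 1, 59242517 to 59249720, and chromosome 19, 18390504 to 18392432, both on the minus strand of GRCh37) have a single exon in their canonical transcripts, as does *JUNB* (chromosome 19, 12902300 to 12904129, plus strand). In GENCODE 44, 14.2% of the exonic bases of *JUNB* are shared with *HOOK2* on the opposite strand. *HOOK2*, a gene of a microtubule linker protein, had 7.69 FPKM after *APC* silencing against 11.6 FPKM in the control. The paper names the TruSeq RNA Library Preparation Kit and does not state whether strand was used in assigning reads. The part of *HOOK2* reads in the value of *JUNB* was not tested.

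The 250 bases before the starts of *JUN* (chr1:58784048-58784297, GRCh38.p14, minus strand) and *JUND* (chr19:18281623-18281872, GRCh38.p14, minus strand) are shown because both hold TGACNTCA (capitals). Use of these sites was not tested. The match lies 67 to 60 bases before the start of *JUN* and 200 to 193 bases before that of *JUND*.
JUN: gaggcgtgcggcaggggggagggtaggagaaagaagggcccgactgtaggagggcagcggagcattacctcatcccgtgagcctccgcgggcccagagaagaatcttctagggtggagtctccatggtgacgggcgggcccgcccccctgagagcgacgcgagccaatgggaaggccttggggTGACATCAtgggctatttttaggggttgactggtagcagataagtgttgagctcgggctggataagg
JUND: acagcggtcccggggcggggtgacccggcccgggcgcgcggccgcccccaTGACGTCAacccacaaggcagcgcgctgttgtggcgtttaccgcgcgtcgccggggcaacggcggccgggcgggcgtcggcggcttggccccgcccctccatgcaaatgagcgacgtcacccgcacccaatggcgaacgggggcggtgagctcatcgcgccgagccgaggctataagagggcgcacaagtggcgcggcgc

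Among the transcripts of the FOS family, whose proteins lend the dimer stability on DNA, *FOSL1* dominated. Protein levels and the make-up of AP-1 dimers were not measured in these libraries. *FOSL1* encodes FRA-1, a factor with no strong activation domain that is sustained by ERK signaling in RAS-mutant epithelial cancers. It had 105 FPKM after *APC* silencing against 133 FPKM in the control, or 0.787 of the untransfected level. The log2 ratio was -0.34 (counting interval -0.40 to -0.29), and 16.8% of expressed genes had a lower one. Among the 995 genes with a mean of at least 100 FPKM, 9.75% had a lower ratio than *FOSL1*. *FOSL2*, which encodes the related FRA-2, had 11.1 and 12.5 FPKM with a log2 ratio of -0.17 (counting interval -0.26 to -0.08). That value lies in the middle 50% of expressed genes, from -0.24 to 0.11. *FOSL1* is on chromosome 11 (65659520 to 65668044, minus strand) and *FOSL2* on chromosome 2 (28615315 to 28640184, plus strand) of GRCh37.

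The rapidly induced *FOS* and *FOSB*, whose products carry strong activation domains, were low and higher with siRNA. *FOS* had 4.62 FPKM after *APC* silencing against 3.59 FPKM in the control, a log2 ratio of 0.36 (counting interval 0.08 to 0.65). *FOSB* had 1.251 and 0.785 FPKM, a 1.59-fold difference and a log2 ratio of 0.67 (counting interval 0.23 to 1.11). About 109 and 75 reads stand behind the *FOSB* values. Among the 4945 genes with a mean of 1 to under 10 FPKM, 3.52% were at least 1.5-fold higher, and the mean of *FOSB*, 1.02 FPKM, is just above the minimum. With 0.5 FPKM added to both values its log2 ratio was 0.45, which is under 1.5-fold. *FOSB* (chromosome 19, 45971253 to 45978437, plus strand) lies within the span of *ERCC1* on the opposite strand but shares no exonic base with it. *FOS* (chromosome 14, 75745529 to 75748933, plus strand) overlaps no other annotated gene.

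The 4 FOS transcripts summed to 122 FPKM after *APC* silencing against 150 FPKM in the control, a log2 ratio of -0.30. *FOSL1* made up 86.0% of the sum with siRNA and 88.7% without, *FOSL2* 9.13% and 8.33%, *FOS* 3.80% and 2.40%, and *FOSB* 1.03% and 0.524%. Both family sums were therefore lower while *FOS*, *FOSB* and *JUN* were higher. The ratio of summed FOS to summed JUN transcripts was 2.83 with siRNA and 2.72 without.

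**Figure D3:**
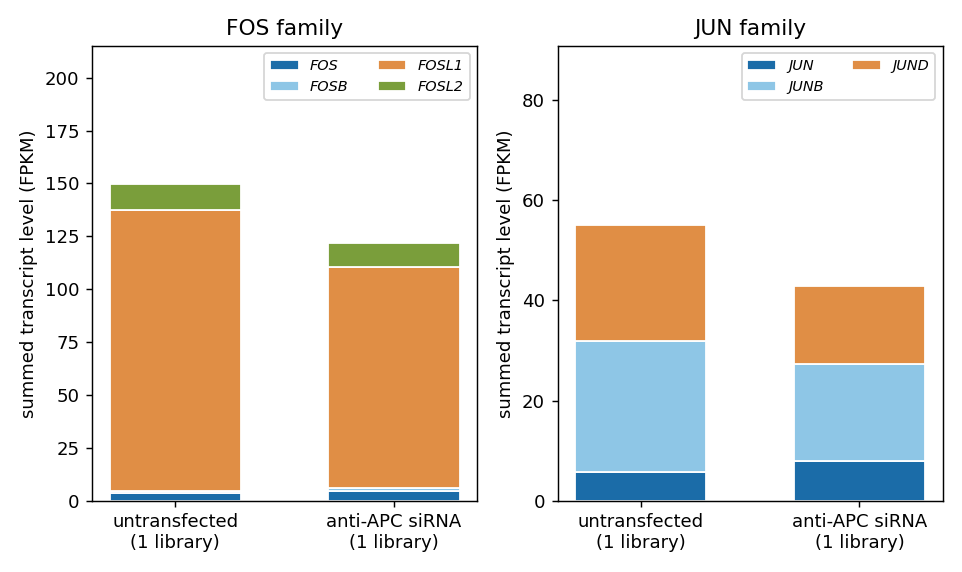
Summed transcript level (FPKM) of the FOS family and the JUN family in the untransfected and the anti-*APC* siRNA library, with each segment a gene and each bar 1 library. *FOSL1* fills most of the FOS bars (88.7% and 86.0%), and the *JUN* segment is larger with siRNA (10.2% and 18.2% of its bar) although the bar is shorter.

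*EGR1* and *IER2* are immediate early genes outside AP-1. *EGR1*, a zinc finger factor induced by serum response factor, had 44.9 FPKM after *APC* silencing against 37.1 FPKM in the control, a 1.21-fold difference. The log2 ratio was 0.28 (counting interval 0.20 to 0.35), and 9.27% of expressed genes had a higher one. *IER2*, a nuclear protein induced by growth factors, had 51.3 and 54.3 FPKM. Its log2 ratio of -0.08 (counting interval -0.16 to -0.0051) was the smallest in size of the 10. Both are in the upper part of expressed genes by mean level, above 79.0% and 83.8% of them. *EGR1* is on chromosome 5 (137801168 to 137804992) and *IER2* on chromosome 19 (13261225 to 13265725), both on the plus strand of GRCh37. In GENCODE 44 both of the noncoding genes opposite *IER2* share exonic bases with it, 21.5% and 30.7% of its own. The part of their reads in the value of *IER2* was not tested.

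The 250 bases before the start of *EGR1* (chr5:138465229-138465478, GRCh38.p14, plus strand) are shown for their CArG boxes, the core of the serum response element, in capitals. They lie 105 to 96 and 83 to 74 bases before the start.
EGR1: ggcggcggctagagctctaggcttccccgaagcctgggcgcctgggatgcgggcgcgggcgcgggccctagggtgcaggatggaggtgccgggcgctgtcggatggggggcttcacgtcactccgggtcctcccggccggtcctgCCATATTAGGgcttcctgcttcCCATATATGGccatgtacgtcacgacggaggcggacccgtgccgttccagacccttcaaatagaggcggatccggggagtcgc

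RefSeq promoters were matched for 9 of the 10 genes, 10 windows in all, with *FOSL1* unmatched. On either strand of the 250 bases before the start, TGACNTCA was found in 3 of the 10 windows (*ATF3*, *JUN* and *JUND*) and in 6.87% of 35116 promoters. The CArG box was found only before *EGR1*, and in 1.16% of all promoters. The EGR motif GCGNGGGCG was also found only before *EGR1*, with 8.41% of all promoters holding it. The GC box GGGCGG was found in 7 of the 10 windows and in 42.6% of all. The AP-1 site TGANTCA (6.57% of all promoters) and the TCF motifs ATCAAAG (2.26%) and AACAAAG (4.50%) were found in none of the 10. Matches of different motifs were counted separately and may overlap. These matches are descriptions of the letters in these windows, and no other part of the genes was searched.

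Other immediate early genes gave a mixed picture. Of 27 listed, 24 were expressed, 3 were at least 1.5-fold higher, 1 was at least 1.5-fold lower, and the median log2 ratio was 0.15. The shares over all expressed genes were 2.56% higher and 6.61% lower, with a median of -0.05. *EGR3*, a relative of *EGR1*, had 2.16 FPKM after *APC* silencing against 0.613 FPKM in the control, a 3.53-fold difference at a low level, and passed the minimum only through the library where it was higher. *NR4A2*, an orphan nuclear receptor gene, had 8.05 and 3.96 FPKM, and *SGK1*, a serum-induced kinase gene, had 6.87 and 4.15 FPKM. *IER5L* was lower, at 6.36 FPKM after silencing against 11.0 FPKM in the control. Of 14 other AP-1 and bZIP partner genes, such as *BATF3*, *ATF2* and *MAFG*, 9 were expressed and none reached 1.5-fold in either direction, with log2 ratios from -0.49 to 0.27.

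The 19 genes of the ERK, JNK and related kinase pathways and their ETS factors were all expressed. None reached 1.5-fold in either direction (log2 ratios from -0.43 to 0.30). Over all expressed genes 2.56% were at least 1.5-fold higher and 6.61% at least 1.5-fold lower, so few calls would be found in a list of this size. Of 11 feedback inhibitors of ERK signaling or of EGR1, 10 were expressed, 2 were at least 1.5-fold higher and 1 lower. *DUSP6*, a phosphatase of ERK, had 65.9 FPKM after *APC* silencing against 37.5 FPKM in the control. *SPRY4*, an inhibitor of receptor tyrosine kinase signaling, had 54.2 and 30.7 FPKM, while the related *SPRY1* was lower at 0.896 and 1.52 FPKM and passed the minimum only through the control.

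Of 19 textbook AP-1 target genes 12 were expressed, with a median log2 ratio of -0.28, and 3 were at least 1.5-fold lower and 1 higher. Over all expressed genes the median was -0.05, with 6.61% at least 1.5-fold lower and 2.56% at least 1.5-fold higher. *PLAU*, the urokinase gene, had 7.35 FPKM after *APC* silencing against 20.0 FPKM in the control, at a Cuffdiff locus that holds 2 genes. *HMGA1*, an architectural chromatin protein gene, had 507 and 881 FPKM, and *CD44*, a hyaluronan receptor gene, had 71.3 and 111 FPKM. *VIM*, which encodes vimentin, was higher, at 2.17 and 1.35 FPKM. *CCND1*, the cyclin D1 gene, had 315 and 246 FPKM, which is under 1.5-fold. Among 7 integrated stress response genes beside *ATF3*, 1 was at least 1.5-fold higher (*SESN2*, 7.55 and 4.21 FPKM) and 1 lower (*DDIT4*, 21.7 and 49.9 FPKM). *ATF4*, which activates *ATF3* in that response, had 213 FPKM after silencing against 236 FPKM in the control. *DDIT3*, another gene of this list, had 45.3 and 31.7 FPKM (log2 ratio 0.51), at a Cuffdiff locus that holds 2 genes. Of the 7 genes, 4 had a ratio above 1, as did 41.4% of all expressed genes. Their median log2 ratio was 0.02. Whether a stress response contributed to the *ATF3* level was not tested.

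**Figure D4:**
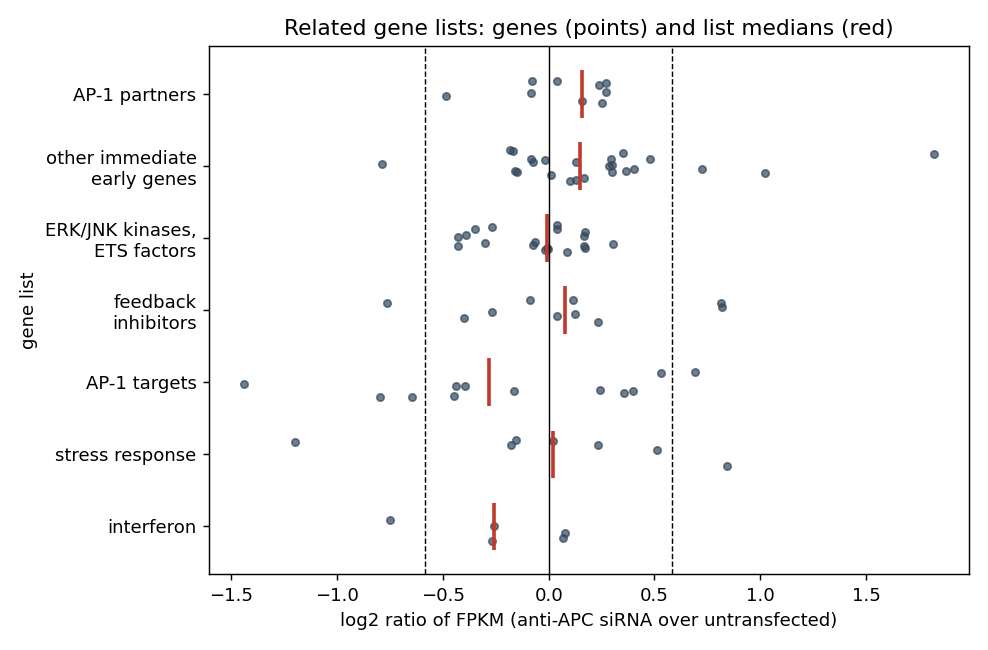
Log2 ratio of FPKM (anti-*APC* siRNA over untransfected) for the expressed genes of 7 related lists; points are genes, spread vertically at random for visibility, red lines are list medians and dashed lines mark 1.5-fold. The kinase list and the AP-1 partner list lie wholly inside the dashed lines, *EGR3* is the point farthest right and *PLAU* the point farthest left.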

How the data were processed

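HCT-116 mRNA was sequenced by the authors from single-read libraries. They assigned reads with Cufflinks and Cuffdiff (hg19 per the labels), and the aligner, annotation and versions are not given in the sources used here. The deposited FPKM of the anti-*APC* siRNA and untransfected libraries (1 each of 3 in the series) were used. The deposited table also holds the authors' own log ratio, test statistic, *p*, *q* and significance call, none of which was used. All 269 rows with Cuffdiff status FAIL are listed at 0 in both libraries, whereas all 10 members have status OK and a Cuffdiff locus of their own.

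Ratios are log2 of anti-*APC* siRNA FPKM over untransfected FPKM, with no pseudocount. Genes with a mean of at least 1 FPKM and above 0 in both libraries formed the background. Low genes (mean below 0.1 FPKM, 1659 rows) included 327 at one log2 ratio of 0.13 within 0.01, read as equal read numbers. The 109 of these with 20000000 to 30000000 implied reads gave the depth (their median), and reads per member used the canonical GENCODE 44 transcript length, so read numbers are estimates. The ratio and depth steps were tested on simulated data. The simulated depth lay inside that same range and the transcript lengths were known. That test therefore could not show an error from the choice of range or from wrong lengths. Members, gene lists, markers and alternatives were chosen with earlier results of these data known. Beside members, genes named are those of each list past 1.5-fold, up to 4 a list. *HOOK2*, *ERCC1*, *ATF4*, *DDIT3*, *CCND1*, *BATF3*, *ATF2*, *MAFG*, *ISG15*, *DUSP5* and the other *NR4A* genes were added after their values were seen. Python 3.11.15, numpy 2.4.6, pandas 2.3.3, scipy 1.17.1 and matplotlib 3.10.9 were used.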

Additional observations from a re-analysis of the deposited data

How the results depend on the processing

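With 1 library per condition no replicate could be left out, and no paired analysis was possible because each group has 1 sample. The scrambled siRNA library of the series was not analysed here, so no comparison with it was made. The count of 2 members at least 1.5-fold higher was 1 (*ATF3*) with a pseudocount of 0.5 or 1 FPKM, with reads not corrected for depth, and with a mean of at least 5 FPKM. Over all expressed genes the share higher was 2.17% and 1.88% with these pseudocounts and 1.84% with reads not corrected for depth. It was 2.02% of the genes with a mean of at least 5 FPKM. The count of members was 4 at a log2 threshold of 0.32 and 0 at 2-fold. The count of 0 members at least 1.5-fold lower was 1 (*JUND*) with reads not corrected for depth and 3 at a log2 threshold of 0.32. Over all expressed genes 11.1% were at least 1.5-fold lower with reads not corrected for depth. The summed FOS family log2 ratio was -0.25 after centring on the median and -0.43 with reads not corrected for depth, and that of the JUN family was -0.49 with the latter. Of 60 alternative values for single members (3 pseudocounts and 3 scalings each), none changed sign, and 6 lay outside the member's counting interval, all with reads not corrected for depth. The share of all expressed genes at least 1.5-fold higher or lower was 7.17% and 18.4% at a log2 threshold of 0.32 and 0.953% and 1.37% at 2-fold. Without a minimum on the mean these were 6.65% and 12.8%. Under the scalings the median of the kinase list ran from -0.14 to 0.04, that of the feedback inhibitors from -0.05 to 0.13, that of the stress genes from -0.11 to 0.07 and that of the 10 members from -0.03 to 0.15, so their signs depend on it. That of the other immediate early genes ran from 0.02 to 0.20. The estimated depth of the untransfected library was 26100000 reads in the fullest bin with no range set, an alternative chosen after seeing the data. Members below 10 FPKM rest on the fewest reads, and counting alone leaves *FOSB* a 95% interval of 0.23 to 1.11 on the log2 scale.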

Other observations

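Genes of the double-stranded RNA and interferon response, which transfected RNA can induce, were mostly low. Of 9 listed, 5 had a mean of at least 1 FPKM, none was at least 1.5-fold higher with anti-*APC* siRNA and 1 was lower. That was *IFIT1*, an interferon-induced RNA-binding protein gene, at 0.850 FPKM after silencing against 1.43 FPKM in the control, and it passed the minimum only through the control. *ISG15*, a ubiquitin-like protein gene, was the highest at 65.3 and 78.0 FPKM. The median log2 ratio of the 5 genes was -0.26, against -0.05 over all expressed genes. Of all expressed genes 2.56% were at least 1.5-fold higher and 6.61% at least 1.5-fold lower, so 5 genes are too few to read the counts. An effect of transfected RNA on these genes was not tested.

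In the NR4A family of orphan nuclear receptors, which are also immediate early genes, all 3 genes had higher FPKM with anti-*APC* siRNA. *NR4A1* had 13.2 and 9.96 FPKM, *NR4A2* 8.05 and 3.96 FPKM, and *NR4A3* 0.507 and 0.232 FPKM, the last below the expression minimum. This family was singled out after its values were seen. *NR4A1* was under 1.5-fold, and 41.4% of all expressed genes had a ratio above 1. *DUSP5*, an immediate early phosphatase gene, had 102 FPKM after silencing against 78.8 FPKM in the control, which is under 1.5-fold.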
